A study of Mus musculus with 20 samples.

Results

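The genes described here are 34 genes of cardiomyocyte calcium handling, a list drawn up by function and applied to the array by gene symbol. The list was chosen with earlier results of these data known, so shares of called members are descriptions. Of the 34 genes, 33 had at least 1 probe in the platform annotation, 103 probes in all. Itpr1, 1 of the inositol trisphosphate receptor genes, had none and was not analysed here. Of the 103 probes, 73 passed the filter for detection and were tested, and they stood for 31 genes among 11154 named genes tested in all. The other 30 probes stayed below the filter. They include every probe of Casq1 and Trdn, which were detected on 0 arrays. Since the filter keeps a probe that is detected in 1 group alone, the genes that passed are those with a measurable signal in at least some groups.

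Gene expression was measured in total RNA of atrial appendages from CD1 mice, an outbred strain, at 12 weeks of age. The 4 groups of 5 arrays were the left atrium of mice heterozygous for a targeted allele (LA het), the right atrium of mice of that genotype (RA het), the left atrium of wild-type littermates (LA wt) and the right atrium of wild-type littermates (RA wt). Both sides came from the same mice, and the labels do not give which arrays share a mouse. How the allele was made, and whether it is changed in every cell, is not given in the sources used here.

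Each heartbeat starts with calcium that enters a cardiomyocyte through L-type channels. This calcium opens ryanodine receptors, which release much more calcium from the sarcoplasmic reticulum, the internal calcium store. The myocytes relax when the pump SERCA2 returns calcium to the store and the sodium-calcium exchanger carries it out of the cell. Calcium and calmodulin activate the kinase CaMKII, which phosphorylates several of these channels and the pump's inhibitor. In atrial myocytes, altered release from the store is a much-studied feature of atrial fibrillation.

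Each array detected between 17316 and 19422 of 45281 probes, and 5 arrays a group limit the precision. The atrial label was checked against 11 cardiomyocyte genes, of which 10 had a probe and all 10 were detected. Their summed signal ran from 236000 to 252000 in LA het, 195000 to 258000 in RA het, 231000 to 244000 in LA wt and 235000 to 251000 in RA wt. RA het 1 was the lowest of these arrays. Myl2, a myosin light chain of ventricular muscle, ran from 107.6 to 3999.7 in LA het, 402 to 33896.9 in RA het, 6.9 to 106 in LA wt and 698.2 to 29382.7 in RA wt. Its signal passed 10000 on RA het 1, RA het 4 and RA wt 2. Ucp1, a gene of brown fat, passed 100 on LA het 1, LA het 2, LA het 4 and RA het 1. In such bulk samples, fewer cells of a type and less RNA per cell cannot be told apart.

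The comparison of left with right atrium asks which members differ between the sides, and the comparison of heterozygous with wild-type mice asks which differ with the genotype. Differences are on a log2 scale with an offset of 16, left minus right or heterozygous minus wild type, with 95% confidence intervals. Probes with a limma adjusted p under 0.05, over all 20097 tested probes of the comparison, were called. In heterozygous mice, 2 of 31 members were called between the sides, Camk2b higher in the left and Ryr3 higher in the right atrium. These directions were called for 1.24% and 1.37% of all tested probes, and for 1.71% and 1.87% of all 11154 named genes tested. The 4 called probes of the pair are 5.48% of the members' 73 probes, beside 2.61% of all tested probes. Of these 4, 3 are probes of Ryr3. In wild-type mice the same 2 genes were called through 4 probes, 3 of them of Ryr3, again 5.48% beside 3.28% of all tested probes. Of all tested probes, 1.57% were called higher in the left and 1.72% higher in the right atrium. The shares of all named genes were 2.15% and 2.33%. Over both genotypes 5 members were called. Camk2b, Hrc and Pln were higher in the left atrium, and Ryr3 and 1 of the probes of Cacna2d1 were higher in the right. These 7 probes, 3 of them of Ryr3, are 9.59% of the members' probes, beside 7.35% of all tested probes. In each of these counts 1 probe, the Ryr3 probe ILMN_2656679, entered the test only through right atria. By direction, 3.82% of all tested probes were called higher in the left atrium and 3.53% higher in the right. The shares of all named genes were 5.08% and 4.77%.

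Most members lay close to no difference between the sides. For each gene the tested probe with the highest mean level stood for the gene. The median difference over the 31 genes was 0.04 in heterozygous mice, -0.01 in wild-type mice and 0.01 over both, against medians of 0, 0.01 and 0 over all tested probes. The interval over both genotypes lay within a 2-fold change for 30 of 31 members and within a 1.5-fold change for 27. The exception at 2-fold was Ryr3.

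**Figure D1:**
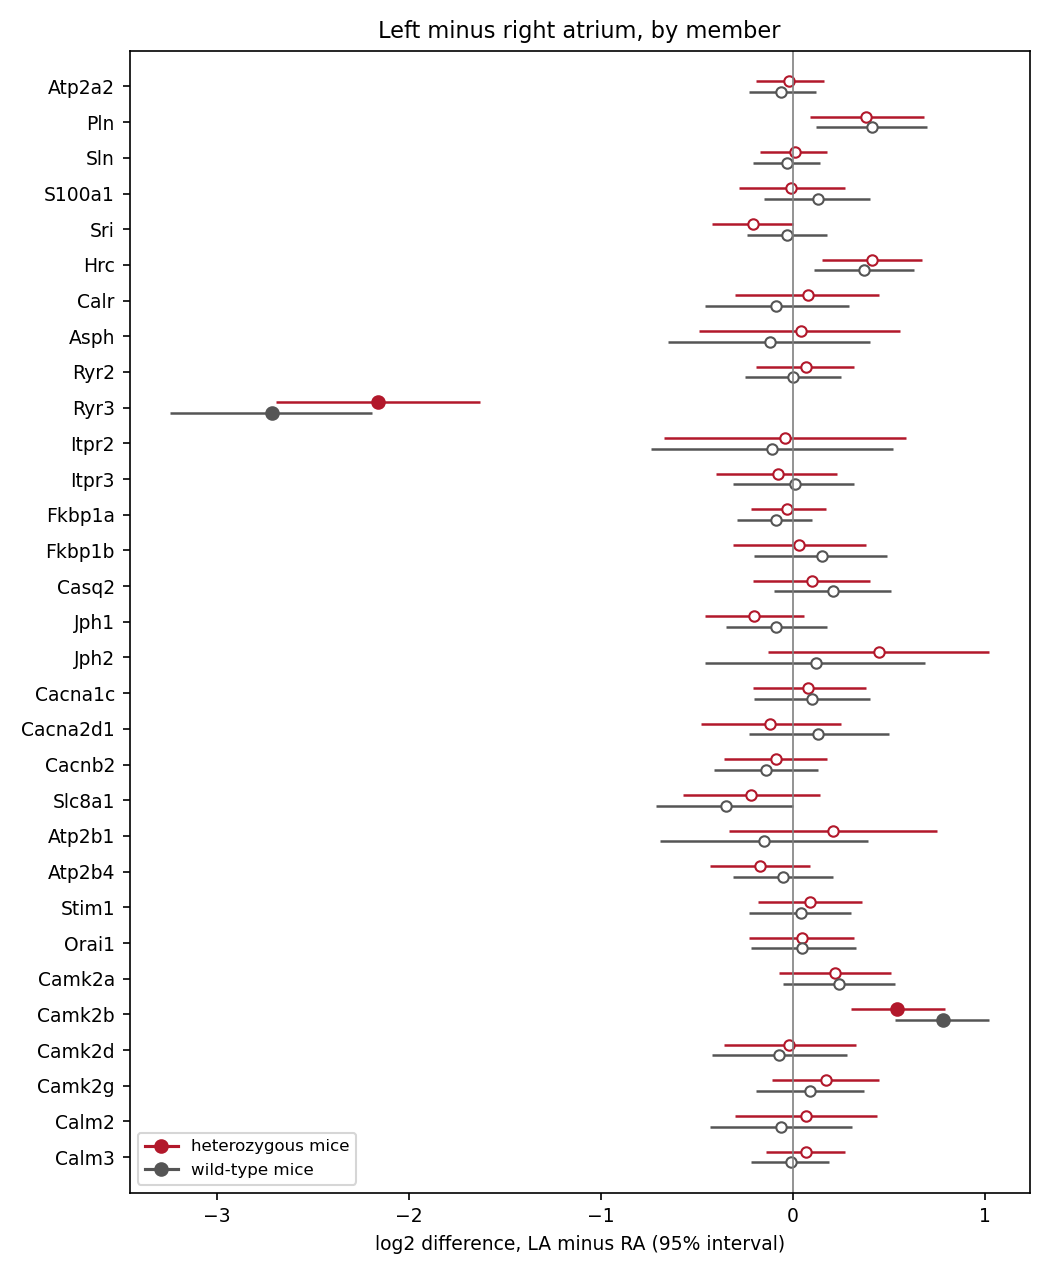
Log2 difference between left and right atrium (horizontal axis) for the probe that stands for each of the 31 members, ordered by role from the pump at the top to calmodulin at the bottom. Points are limma estimates from 5 arrays per group with 95% intervals, red for heterozygous and grey for wild-type mice, and filled points were called at an adjusted p under 0.05. Ryr3 lies at -2.16 and -2.71 and Camk2b at 0.54 and 0.78, while the other members lie between -0.35 and 0.45.

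Of the pump and its regulators, 2 of 8 genes were called over both genotypes, Pln and Hrc. Both were higher in the left atrium, as were 5.08% of all named genes tested. Pln encodes phospholamban, the inhibitor of SERCA2. On the deposited linear scale its signal in heterozygous mice was 9312, 8317.4, 11096.2, 7819.3 and 11395.7 in the left atrium, against 6359.1, 6369.6, 7168.5, 8886.6 and 7804.5 in the right. The wild-type signal was 9796.3, 9206.6, 10300.1, 11825.6 and 11858.3 in the left atrium, against 6564.8, 9391.8, 6708.7, 7819.3 and 9630.7 in the right. The left arrays were mostly the higher ones, and the sides overlap in both genotypes. Over both genotypes Pln was 0.40 higher in the left atrium, a 1.32-fold difference (SE 0.10, interval 0.19 to 0.60, limma adjusted p = 0.0139). Within heterozygous mice the difference was 0.38 (limma adjusted p = 0.195), and within wild-type mice 0.41 (limma adjusted p = 0.142), so neither genotype alone passed the test.

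Hrc encodes the histidine-rich calcium-binding protein of the store's lumen. Its signal in heterozygous mice was 12750.4, 10873.7, 11067.6, 10447.4 and 10381.9 in the left atrium, against 6010.9, 8710.1, 9363.5, 11137.7 and 7441.3 in the right. In wild-type mice it was 10990.1, 10416.5, 11067.6, 11262.3 and 10674.4 in the left atrium, against 8418.7, 8539.5, 9600.1, 8180 and 7548.3 in the right. Every wild-type left array was above every wild-type right array, and among heterozygous mice RA het 4 reached the left range. Over both genotypes Hrc was 0.39 higher in the left atrium, a 1.31-fold difference (SE 0.09, interval 0.20 to 0.57, limma adjusted p = 0.00733). The difference was 0.41 in heterozygous and 0.37 in wild-type mice (limma adjusted p = 0.101 and 0.143).

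Myl2, a ventricular light chain, read 107.6 to 3999.7 in LA het against 402 to 33896.9 in RA het, and 6.9 to 106 in LA wt against 698.2 to 29382.7 in RA wt, where the sides did not overlap. Ucp1, a marker of brown fat, passed 100 on 3 LA het arrays and on 1 RA het array. The median of the fat marker Adipoq was 2181.9 in LA het against 462.2 in RA het, and 296.6 in LA wt against 1249.2 in RA wt, so it ran in opposite directions in the 2 genotypes. Without the 3 arrays with a Myl2 signal over 10000, Pln was 0.45 and Hrc 0.38 higher in the left atrium (limma adjusted p = 0.0108 and 0.00168). Without the 4 arrays whose Ucp1 signal passed 100, these differences were 0.50 and 0.30 (limma adjusted p = 0.0107 and 0.0478). With the levels of Myl2, Adipoq and Upk3b (epicardium) as covariates, they were 0.44 and 0.32 and did not pass (limma adjusted p = 0.222 and 0.369). Their SEs were then 0.16 and 0.14, larger than without the covariates. The summed signal of 5 ventricular markers, of which Irx4 was detected on 1 array only, ran from 6240 to 20700 in LA het, 4160 to 71800 in RA het, 5410 to 13100 in LA wt and 7320 to 64600 in RA wt. The list's genes other than Myl2 overlapped between the sides in both genotypes. Among them, Myl3 had the higher median in the left atrium, with 8230.3 in LA het against 7441.3 in RA het. In wild-type mice its medians were 8339.5 on the left and 5514.7 on the right. The highest Myl3 signals were nevertheless on the 3 right arrays with a Myl2 signal over 10000. They were 25080.1 on RA het 1, 32864.2 on RA het 4 and 31064.4 on RA wt 2. The highest left signal of Myl3 was 13463.9, on LA het 2.

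The other regulators of the pump were not called. Atp2a2, which encodes SERCA2 itself, had a mean level of 15.04 ± 0.12 in LA het, 15.06 ± 0.10 in RA het, 15.02 ± 0.12 in LA wt and 15.08 ± 0.06 in RA wt (SD, n = 5). Its difference between the sides was -0.04 (interval -0.16 to 0.09). Sln encodes sarcolipin, the small SERCA inhibitor that is abundant in atria, and differed by -0.01 (interval -0.14 to 0.11). The mean levels of these probes correspond to 87.9% and 84.6% of the highest signal on the arrays, and whether differences are compressed there was not tested. The 3 tested probes of Atp2a2 ran from -0.07 to 0.02. S100a1, an activator of SERCA2 and of ryanodine receptors, differed by 0.06 (interval -0.14 to 0.25). Sri, which encodes the calcium-sensing protein sorcin, differed by -0.12 (interval -0.27 to 0.03), and its 3 probes ran from -0.24 to -0.09. Calr, the buffering chaperone calreticulin, differed by -0.01, and Asph, whose isoforms include junctin, by -0.04. The 11 tested probes of Asph ran from -0.06 to 0.22, with 5 above and 6 below 0.

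The start regions of Pln, Hrc and Camk2b, which had higher levels in the left atrium, are shown because cardiac transcription factors bind defined DNA letters. Ryr3, higher in the right atrium, was also sought but had no entry among the start regions used, so none is shown for it. Each stretch is the 250 bases before the RefSeq start of the gene on its own strand, 5′ to 3′, in build GRCm38.p6, credited to RefSeq. The 3 stretches are chr10:53337436-53337685 on the plus strand for Pln, chr7:45335019-45335268 on the plus strand for Hrc and chr11:6065749-6065998 on the minus strand for Camk2b. Capitals mark a match to a factor's motif on either strand.
Pln: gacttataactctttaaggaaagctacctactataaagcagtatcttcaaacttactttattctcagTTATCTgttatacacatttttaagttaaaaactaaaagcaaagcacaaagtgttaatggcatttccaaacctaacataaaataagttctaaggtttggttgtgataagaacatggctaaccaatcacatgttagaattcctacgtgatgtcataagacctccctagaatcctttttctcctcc
Hrc: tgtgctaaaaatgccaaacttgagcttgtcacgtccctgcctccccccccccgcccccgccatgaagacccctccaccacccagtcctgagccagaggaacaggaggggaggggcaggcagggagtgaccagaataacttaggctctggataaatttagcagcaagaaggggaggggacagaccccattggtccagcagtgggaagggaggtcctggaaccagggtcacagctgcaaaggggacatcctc
Camk2b: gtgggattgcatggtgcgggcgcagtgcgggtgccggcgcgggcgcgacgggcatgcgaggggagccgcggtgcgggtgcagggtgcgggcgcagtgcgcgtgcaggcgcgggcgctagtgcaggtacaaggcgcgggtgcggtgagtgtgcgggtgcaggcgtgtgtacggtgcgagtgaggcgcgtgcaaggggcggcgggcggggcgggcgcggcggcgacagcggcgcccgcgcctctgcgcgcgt
The stretches differ in composition, with 32.8% G and C for Pln, 59.6% for Hrc and 78.4% for Camk2b, against a median of 52.4% over 32851 such stretches. Both strands were searched for AGATAA (for factors of the GATA family, in 9.99% of all stretches), TNAAGTG (NKX2-5, 10.1%) and AGGTGT (T-box factors, 11.8%). The single match was TTATCT, the reverse complement of AGATAA, whose first base is at position -183 from the start of Pln. The looser CANNTG (E-box, in 66.2% of all stretches and not capitalised) was found once each for Pln and Hrc. A match is a description of letters, and a missing match says only that these letters are not in this stretch.

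Of the release channels and their partners, 1 of 9 tested genes was called, Ryr3, in each genotype and over both. Of all named genes tested, 1.87% were called higher in the right atrium in heterozygous mice, 2.33% in wild-type mice and 4.77% over both. Ryr3 encodes the third ryanodine receptor, found at low levels in many tissues beside the cardiac channel Ryr2. By the probe that stands for it (ILMN_2697410), the signal in heterozygous mice was 34.9, 85.8, 52, 104.8 and 39.5 in the left atrium, against 171.8, 368.7, 358.1, 296 and 480.3 in the right. The wild-type signal was 38.7, 59.8, 30.2, 39.2 and 26 in the left atrium, against 408.4, 290.5, 354.7, 261.4 and 381.2 in the right. Every left array was below every right array in both genotypes. The difference was -2.16 in heterozygous mice (SE 0.25, limma adjusted p = 2.46e-05) and -2.71 in wild-type mice (SE 0.25, limma adjusted p = 7.49e-07). Over both genotypes it was -2.44 (interval -2.81 to -2.06, limma adjusted p = 1.03e-08), that is 5.42-fold higher in the right atrium.

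A second Ryr3 probe gave the same direction. Probe ILMN_3150366 read 12.7, 33.3, 39.5, 63.5 and 1.1 in LA het, against 70.9, 231.7, 173.8, 111.6 and 296.9 in RA het. In wild-type mice it read 12.8, 36.6, 25.3, 18.8 and 13.3 in the left atrium, against 163.4, 187.8, 232.1, 137.5 and 286.8 in the right. The sides again did not overlap, with differences of -2.01 in heterozygous and -2.52 in wild-type mice (limma adjusted p = 0.00118 and 7.34e-05). The dim probe ILMN_2656679 was detected on 0 left arrays, on 4 of RA het and on 4 of RA wt. It passed the filter only through the side where it is high, so its values are a description and add no support to the direction. Its signal in RA het exceeded that in LA het by at least 1.42-fold, and its signal in RA wt that in LA wt by at least 1.29-fold (limma adjusted p = 0.0061 and 0.0119). These bounds set the mean of the right atrium against the lowest signals detected on the left arrays. With covariates for Myl2, Adipoq and Upk3b, this probe lost its call in heterozygous and in wild-type mice (limma adjusted p = 0.074 and 0.111). With the same covariates ILMN_2697410 was at -2.02 and -2.92 and ILMN_3150366 at -2.05 and -3.05 in heterozygous and wild-type mice, and these 4 values passed (limma adjusted p = 0.00154, 0.000113, 0.0136 and 0.000956). The remaining probe, ILMN_1225525, was detected on 0 arrays. Sides not overlapping within a genotype were seen for 3.87% of all tested probes in heterozygous and 4.93% in wild-type mice.

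**Figure D2:**
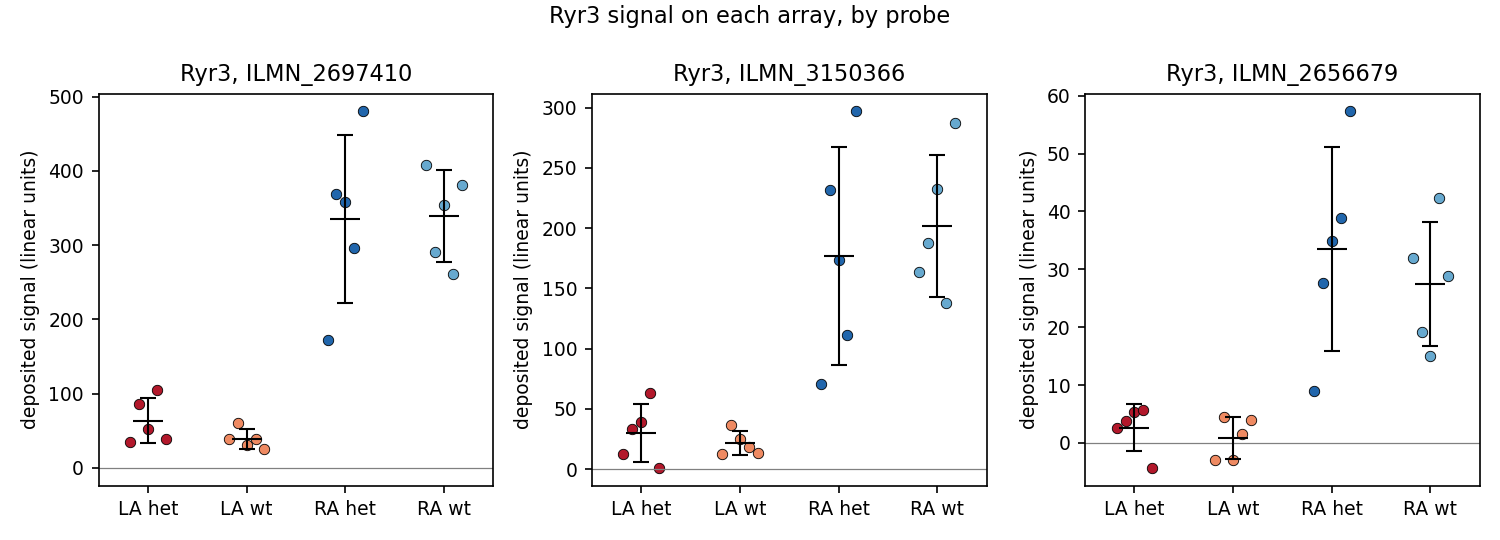
Deposited signal of the 3 tested Ryr3 probes (vertical axes, linear units, each with its own range) on every array, by group. Points are single arrays and bars give the mean and SD of 5 arrays. Left atria lie below right atria in each panel, at 26 to 104.8 against 171.8 to 480.3 for ILMN_2697410.

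Several conduction markers and 1 nerve marker, Dbh, also stood apart between the sides. Of 10 listed conduction and sinoatrial genes, 9 had a probe, with Hcn4 detected on 0 arrays and Isl1 on 4, and 8 were detected on at least 1 array. Their summed signal ran from 508 to 956 in LA het against 1120 to 1850 in RA het, and from 495 to 714 in LA wt against 1000 to 2180 in RA wt. Of the 8, 4 were lower on every left than on every right array in heterozygous mice (Tbx3, Vsnl1, Cacna1g and Rgs6), and 6 in wild-type mice (these and Shox2 and Cntn2), while the others overlapped. Of those that overlapped, Gjc1 had the higher median in the left atrium, with 209.2 in LA het against 179.8 in RA het. In wild-type mice its medians were 270.3 on the left and 167.2 on the right. Over all tested probes, the sides did not overlap for 3.87% in heterozygous and 4.93% in wild-type mice. Of 10 listed neuron and Schwann cell genes, 8 had a probe, with Snap25 and Th detected on 0 arrays and S100b on 1, and 6 were detected on at least 1 array. Their sum ran from 160 to 272 in LA het against 462 to 643 in RA het, and from 146 to 244 in LA wt against 395 to 720 in RA wt. This sum was carried by Dbh (dopamine beta-hydroxylase, of noradrenaline synthesis), at 36.2 to 101.2 in LA het against 372.8 to 556.5 in RA het, and at 26.8 to 108.2 in LA wt against 283.5 to 618.6 in RA wt. Without Dbh the sum was 92.9 to 170 in LA het against 79.8 to 191 in RA het, and 96.7 to 136 in LA wt against 82.4 to 120 in RA wt. The other 5 detected genes of the list overlapped between the sides in both genotypes. Sox10, a Schwann cell factor, had the lower median in the right atrium, with 62.9 in LA het against 42.2 in RA het, and 61.9 in LA wt against 53.4 in RA wt. The part of the conduction markers and of Dbh in the Ryr3 difference was not tested. The Ryr3 difference over both genotypes was -2.62 without the 3 arrays with a Myl2 signal over 10000 and -2.69 without the 4 arrays whose Ucp1 signal passed 100.

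The cardiac release channel and its partners did not pass the test between the sides. Ryr2, the main release channel of the heart, read 11741 to 14534.3 in LA het and 8886.6 to 14474.5 in RA het, with its lowest value on RA het 1. The wild-type signal read 10990.1 to 14676.9 in the left and 11423.1 to 14474.5 in the right atrium. Its difference over both genotypes was 0.03 (interval -0.15 to 0.21). Casq2, calsequestrin, the main calcium buffer of the cardiac store, differed by 0.15 (interval -0.06 to 0.37). Fkbp1a and Fkbp1b, which encode the proteins FKBP12 and FKBP12.6 that bind ryanodine receptors, differed by -0.06 (interval -0.20 to 0.08) and 0.09 (interval -0.15 to 0.33). Fkbp1b was dim and was detected on 3, 2, 2 and 1 arrays of LA het, RA het, LA wt and RA wt. The junctophilins hold the plasma membrane next to the store, and Jph1 and Jph2 differed by -0.14 (interval -0.33 to 0.04) and 0.28 (interval -0.13 to 0.69). The inositol trisphosphate receptors release calcium on hormone signals, and Itpr2 and Itpr3 differed by -0.08 (interval -0.52 to 0.37) and -0.04 (interval -0.26 to 0.18).

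At the plasma membrane, 1 of 8 genes was called over both genotypes, through 1 of its probes, higher in the right atrium. Of all named genes tested, 4.77% were called in that direction. Cacna2d1 encodes the alpha2delta subunit of the L-type channel. Its probe annotated to a cDNA record (ILMN_1215110) read 79.1, 72.4, 76.7, 74.8 and 77.5 in LA het, against 110.8, 95.5, 109.6, 140.7 and 79.4 in RA het. In wild-type mice it read 68.4, 78.2, 53.1, 54.1 and 60.4 in the left atrium, against 116.7, 103.4, 102.4, 70.3 and 70 in the right. The sides did not overlap in heterozygous mice and did in wild-type mice. Over both genotypes this probe differed by -0.43 (SE 0.10, interval -0.63 to -0.22, limma adjusted p = 0.00809), and in neither genotype alone did it pass (limma adjusted p = 0.166 and 0.0946 in heterozygous and wild-type mice). Without the 4 arrays whose Ucp1 signal passed 100 the difference was -0.41 and did not pass (limma adjusted p = 0.0831). With Myl2, Adipoq and Upk3b as covariates it was -0.33 and did not pass (SE 0.17, limma adjusted p = 0.539). Leaving out the arrays with a Myl2 signal over 10000, it was -0.33 and just passed (limma adjusted p = 0.0496). The other probe, annotated to the RefSeq transcript (ILMN_2752030), differed by 0.01 (interval -0.25 to 0.27, limma adjusted p = 0.987). The probes disagree, and whether they read different transcripts was not tested.

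The other membrane genes were not called. Slc8a1, the sodium-calcium exchanger, read 2023.6 to 2951.4 in LA het against 2282.2 to 3852.1 in RA het, and 1738.1 to 2716.9 in LA wt against 2031.4 to 3399.7 in RA wt. Its difference of -0.28 had an interval of -0.53 to -0.04 and did not pass over all probes (limma adjusted p = 0.196). All 3 of its tested probes lay below 0. Cacna1c, the pore of the L-type channel, was dim by its 1 tested probe, which was detected on 2, 1, 3 and 3 arrays of LA het, RA het, LA wt and RA wt, and differed by 0.09 (interval -0.12 to 0.30). Cacnb2, the channel's beta subunit, differed by -0.12 (interval -0.31 to 0.07). The plasma membrane pumps Atp2b1 and Atp2b4 differed by 0.03 (interval -0.35 to 0.41) and -0.11 (interval -0.30 to 0.07). Stim1, the sensor of an emptied store, and Orai1, the channel it opens, differed by 0.06 (interval -0.12 to 0.25) and 0.05 (interval -0.14 to 0.24).

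Of the kinase and calmodulin genes, Camk2b was called, in each genotype and over both. It encodes the beta subunit of CaMKII, while the delta subunit from Camk2d is the main cardiac form. The signal of Camk2b in heterozygous mice was 176.4, 167.5, 193, 160.6 and 198.8 in the left atrium, against 144, 118.3, 103.7, 127.3 and 99.7 in the right. The wild-type signal was 154.2, 157.5, 129.4, 221 and 169.1 in the left atrium, against 80.4, 98.3, 88.5, 88.6 and 90.1 in the right. Left arrays lay above right arrays within each genotype. The difference was 0.54 in heterozygous mice (SE 0.12, limma adjusted p = 0.0123) and 0.78 in wild-type mice (SE 0.12, limma adjusted p = 0.000319). Over both genotypes it was 0.66, a 1.58-fold difference (interval 0.49 to 0.83, limma adjusted p = 1.76e-05). With Myl2, Adipoq and Upk3b as covariates the difference was 0.70 over both genotypes (limma adjusted p = 0.0105). In heterozygous mice it was then 0.53 with a larger SE, and it no longer passed (SE 0.16, limma adjusted p = 0.192).

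The other subunits did not pass. Camk2a differed by 0.23 between the sides (interval 0.03 to 0.44, limma adjusted p = 0.199), Camk2g by 0.13 (interval -0.07 to 0.33) and Camk2d by -0.04 (interval -0.29 to 0.20). The 8 tested probes of Camk2d ran from -0.14 to 0.09. Calm2 and Calm3, which encode the same calmodulin protein, differed by 0.01 (interval -0.26 to 0.27) and 0.03 (interval -0.12 to 0.17).

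**Figure D3:**
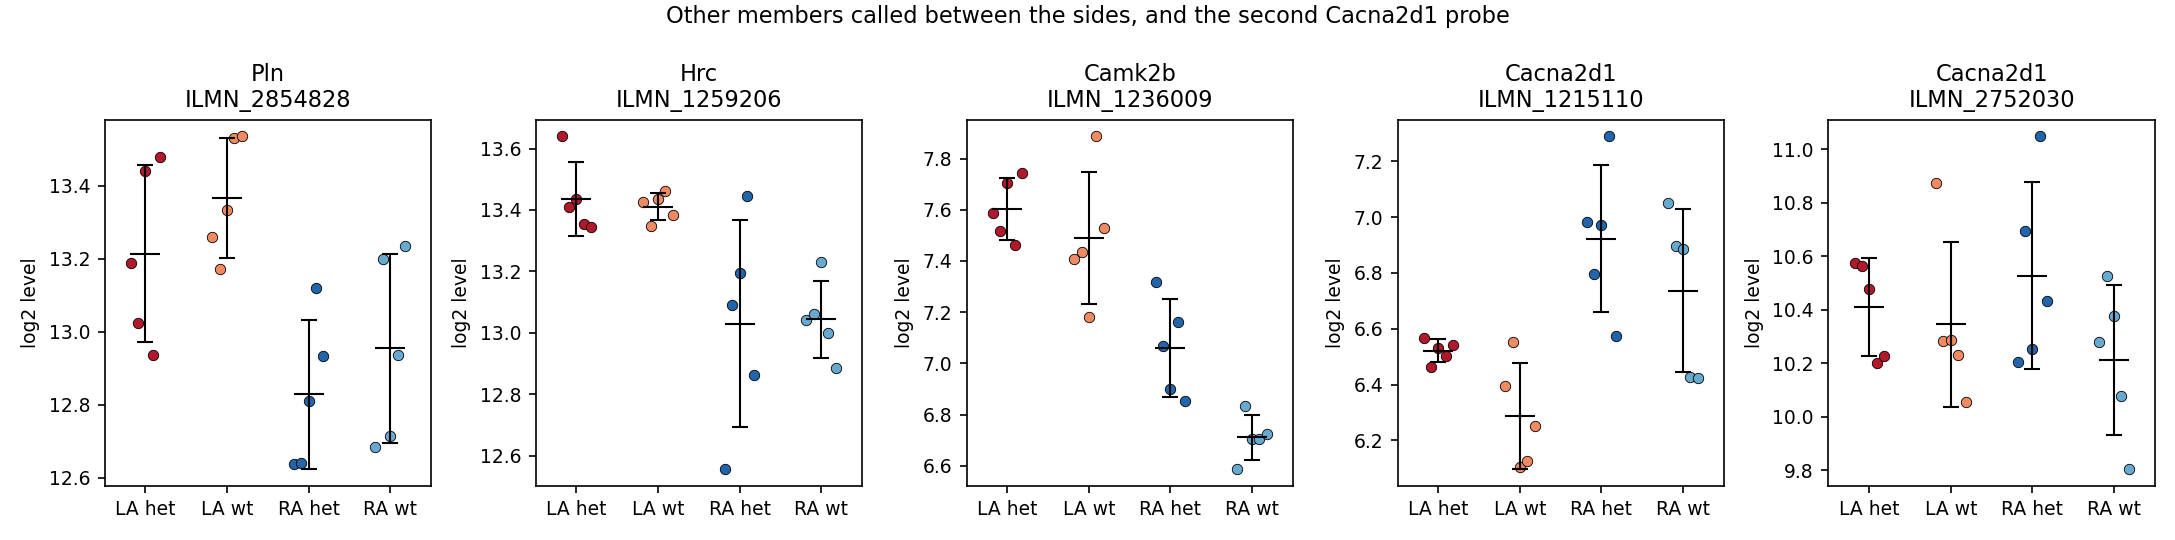
Log2 level (vertical axes, each with its own range) on every array of Pln, Hrc, Camk2b and both probes of Cacna2d1, by group. Points are single arrays and bars give the mean and SD of 5 arrays. Left arrays lie above right arrays for Camk2b within each genotype, Pln and Hrc overlap in heterozygous mice, and only ILMN_1215110 of the Cacna2d1 probes separates the sides in heterozygous mice.

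Between the genotypes no member was called. In the left atrium 0 of 73 member probes passed, beside 0.00498% of all tested probes, and 1 had an unadjusted p under 0.05, which is 1.37% against 4.66% of all tested probes. In the right atrium 0 of 73 passed, beside 0.00995% of all tested probes, and 1 had an unadjusted p under 0.05, which is 1.37% against 5.4%. Over both atria 0 of 73 passed, beside 0.00995% of all tested probes, with 3 at an unadjusted p under 0.05, which is 4.11% against 6.65%. That comparison counts both atria of a mouse as independent arrays, since the labels do not give which share a mouse. Its p-values and intervals do not allow for this. The smallest limma adjusted p among members was 1 in the left atrium, 0.83 in the right and 0.62 over both. The difference between the genotype effects of the sides was tested as an interaction, and again 0 of 73 passed, beside 0.00995% of all tested probes, with 1 at an unadjusted p under 0.05.

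The genotype differences of the 31 genes ran from -0.20 to 0.48 in the left atrium, with a median of 0.01, and from -0.36 to 0.35 in the right, with a median of -0.02. The intervals lay within a 2-fold change for 30 members in the left and 31 in the right atrium, and within a 1.5-fold change for 26 and 23. Atp2a2 differed by 0.02 (interval -0.15 to 0.20) in the left and -0.02 (interval -0.20 to 0.15) in the right atrium. Ryr2 differed by -0.04 (interval -0.29 to 0.21) in the left and -0.11 (interval -0.36 to 0.14) in the right atrium. For Sln the difference was 0.06 (interval -0.12 to 0.24) in the left and 0.02 (interval -0.15 to 0.20) in the right. For Casq2 it was -0.12 (interval -0.42 to 0.19) in the left and 0.00 (interval -0.31 to 0.30) in the right. Pln differed by -0.15 (interval -0.44 to 0.14) in the left and -0.13 (interval -0.42 to 0.17) in the right atrium. Intervals of this width leave room for differences below 1.5-fold in most members.

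**Figure D4:**
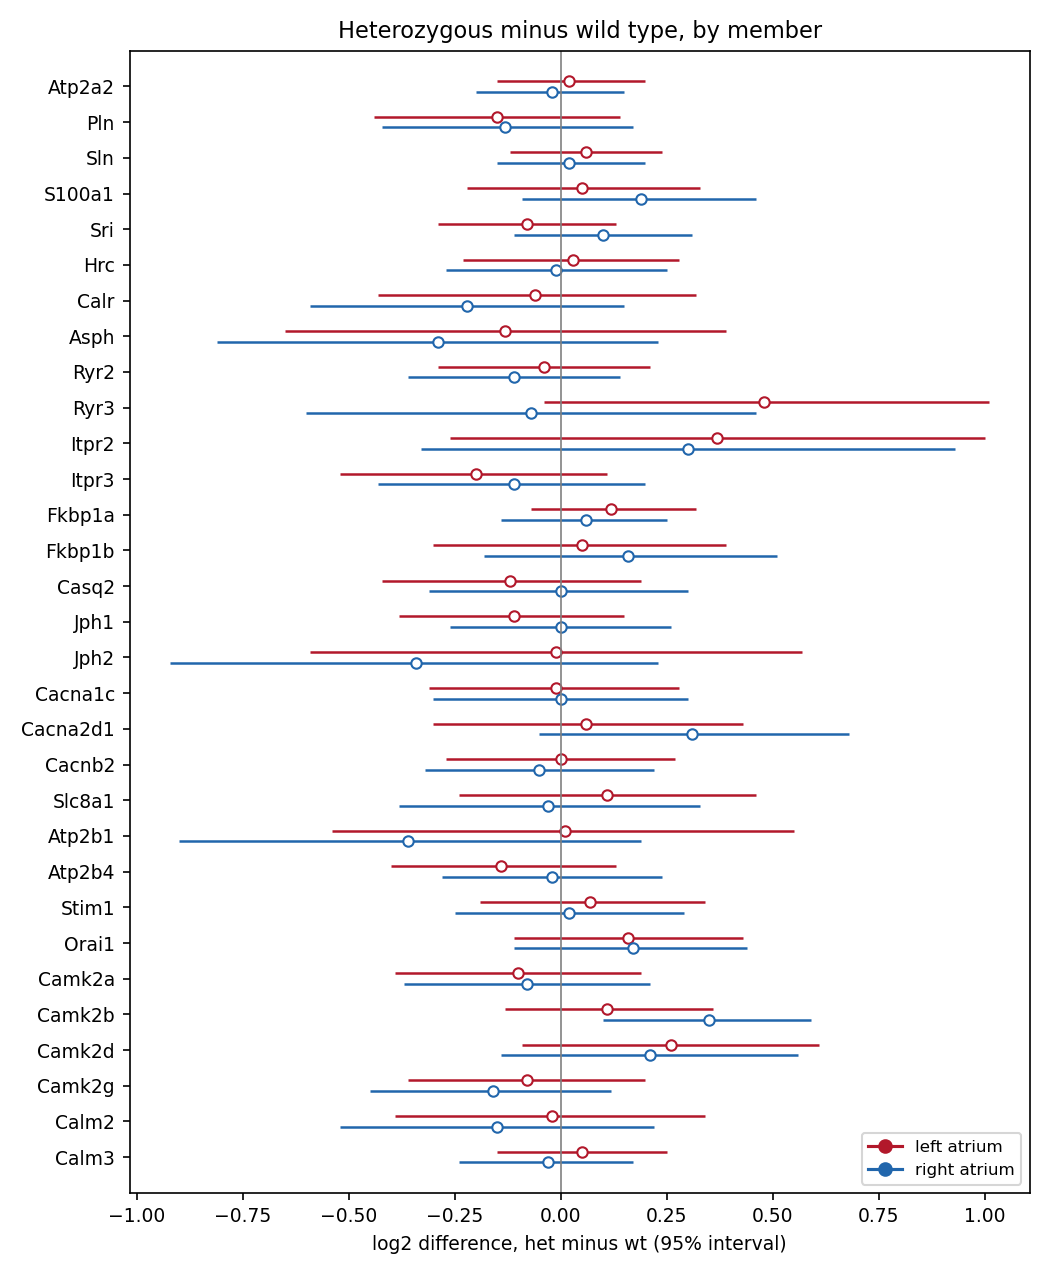
Log2 difference between heterozygous and wild-type mice (horizontal axis) for the probe that stands for each of the 31 members, ordered by role. Points are limma estimates from 5 arrays per group with 95% intervals, red for the left and blue for the right atrium, and no point is filled since none was called. The points run from -0.20 to 0.48 in the left and from -0.36 to 0.35 in the right atrium.

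The members with the smallest unadjusted p between genotypes are given by array, and none passed over all probes. Camk2b in the right atrium was 0.35 higher in heterozygous mice (SE 0.12, interval 0.10 to 0.59, unadjusted p = 0.00762, limma adjusted p = 0.83). Its RA het values of 99.7 to 144 lay above its RA wt values of 80.4 to 98.3, and such groups without overlap were seen for 0.498% of all tested probes. In the left atrium its difference was 0.11 (interval -0.13 to 0.36), and over both atria 0.23 (interval 0.06 to 0.40, limma adjusted p = 0.62). The interaction for Camk2b was -0.23 (interval -0.58 to 0.11), so the genotype effects of the sides were not shown to differ.

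Ryr3 in the left atrium was 0.48 higher in heterozygous mice (SE 0.25, interval -0.04 to 1.01, limma adjusted p = 1), with LA het values of 34.9 to 104.8 overlapping LA wt values of 26 to 59.8. In the right atrium the difference was -0.07 (interval -0.60 to 0.46), and the interaction was 0.55 (interval -0.19 to 1.30, limma adjusted p = 0.999). A dim probe of Camk2g (ILMN_1252615) read 28.8, 27.1, 24.9, 29.1 and 31.7 in LA het, against 18.3, 17.8, 26.2, 20.4 and 19.7 in LA wt, a difference of 0.27 (SE 0.12, limma adjusted p = 1). LA wt 3 lay within the heterozygous range. The probe that stands for Camk2g differed by -0.08 in the same comparison. The dim Itpr2 probe ILMN_3076170 read 13.8, 13.7, 20.7, 26.3 and 7.4 in LA het, against 21.1, 5.3, 13.5, 3.5 and 2.3 in LA wt, a difference of 0.24 (limma adjusted p = 1). The dim Asph probe ILMN_2776700 read 5.8, -5.2, 15, 20.8 and 13 in LA het, against 19, 14.1, 24.6, 21.6 and 5.9 in LA wt, a difference of -0.23 (limma adjusted p = 1). Both pairs of groups overlap. The Cacna2d1 probe ILMN_1215110, whose values stand above, was 0.23 higher in LA het than in LA wt (limma adjusted p = 1).

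In the right atrium, the third Atp2a2 probe (ILMN_2450031) read 307.9, 625.3, 573.9, 428.8 and 779.8 in RA het, against 502.8, 788, 791.7, 624.5 and 666.3 in RA wt, a difference of -0.35 (SE 0.19, limma adjusted p = 0.83). The Cacna2d1 probe ILMN_2752030 read 1164.4, 1642, 1204.3, 2103.1 and 1365.2 in RA het, against 1226.4, 1457.8, 1314.1, 1064.9 and 878.4 in RA wt, a difference of 0.31 (SE 0.17, limma adjusted p = 0.83). Both pairs of groups overlap, and RA het 1 held the lowest heterozygous value of each. The Asph probe ILMN_2606990 read 10.8, 52, 52.7, 18.6 and 121 in RA het, against 27.5, 108.5, 90.9, 78.9 and 88.5 in RA wt, a difference of -0.63 (SE 0.35, limma adjusted p = 0.83). The Ryr2 probe ILMN_1251989 read 6.9, 22.3, 30.9, 15.3 and 58.7 in RA het, against 12.2, 67.9, 44.5, 52.8 and 45.5 in RA wt, a difference of -0.50 (SE 0.28, limma adjusted p = 0.83). Replicate arrays of these dim probes spread as widely as the groups differ.

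Over both atria, the probes of Camk2d disagreed. The probe ILMN_1216561, annotated to a cDNA record, read 26.4, 29.7, 22, 64.2 and 0.1 in LA het, against 54.9, 52.7, 68.7, 42 and 11.6 in LA wt. In the right atrium it read 8.8, 10, 31, 48.1 and 40.1 in RA het, against 80.9, 20.1, 39.7, 45.6 and 66.2 in RA wt. Its difference over both atria was -0.53 (SE 0.24, limma adjusted p = 0.734). The probe ILMN_1222123, which stands for the gene, read 368.3, 295.6, 340.9, 355.9 and 363.1 in LA het, against 288.1, 248.7, 399.2, 281.9 and 230.1 in LA wt. In the right atrium it read 225, 421.2, 437.2, 292.7 and 415.7 in RA het, against 245.2, 332.3, 357.5, 277.8 and 295.5 in RA wt. Its difference was 0.23 (SE 0.12, limma adjusted p = 0.753), opposite in sign to the first. Of 8 Camk2d probes 5 lay above and 3 below 0.

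The spread of the members on replicate arrays was close in median to that of all tested probes. The SD pooled over groups had a median of 0.22 on the log2 scale over the 31 genes, each by its brightest tested probe. Over all tested probes, dim ones included, the median was 0.24, so these medians are not over like sets. Among the 31 genes the SD ran from 0.10 for Atp2a2 and Sln to 0.52 for Itpr2. Jph2 and Atp2b1 also spread widely, with SDs of 0.47 and 0.44. The array RA het 1 stood apart from its group. The median absolute deviation of the members from their group mean was 0.31 on this array and between 0.10 and 0.19 on the other arrays. RA het 1 held the lowest of 20 values for 12 members, Ryr2, Hrc, Pln, Casq2 and Jph2 among them. It held the highest for 5, among them Atp2a2, Sri and S100a1, the last level with RA het 3 at a signal of 8099. Without this array the difference between the sides over both genotypes was 0.37 for Pln, 0.33 for Hrc, 0.69 for Camk2b, -2.54 for Ryr3 and -0.42 for the called Cacna2d1 probe, and each passed (limma adjusted p = 0.0245, 0.00562, 9.66e-06, 3.15e-09 and 0.0134).

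**Figure D5:**
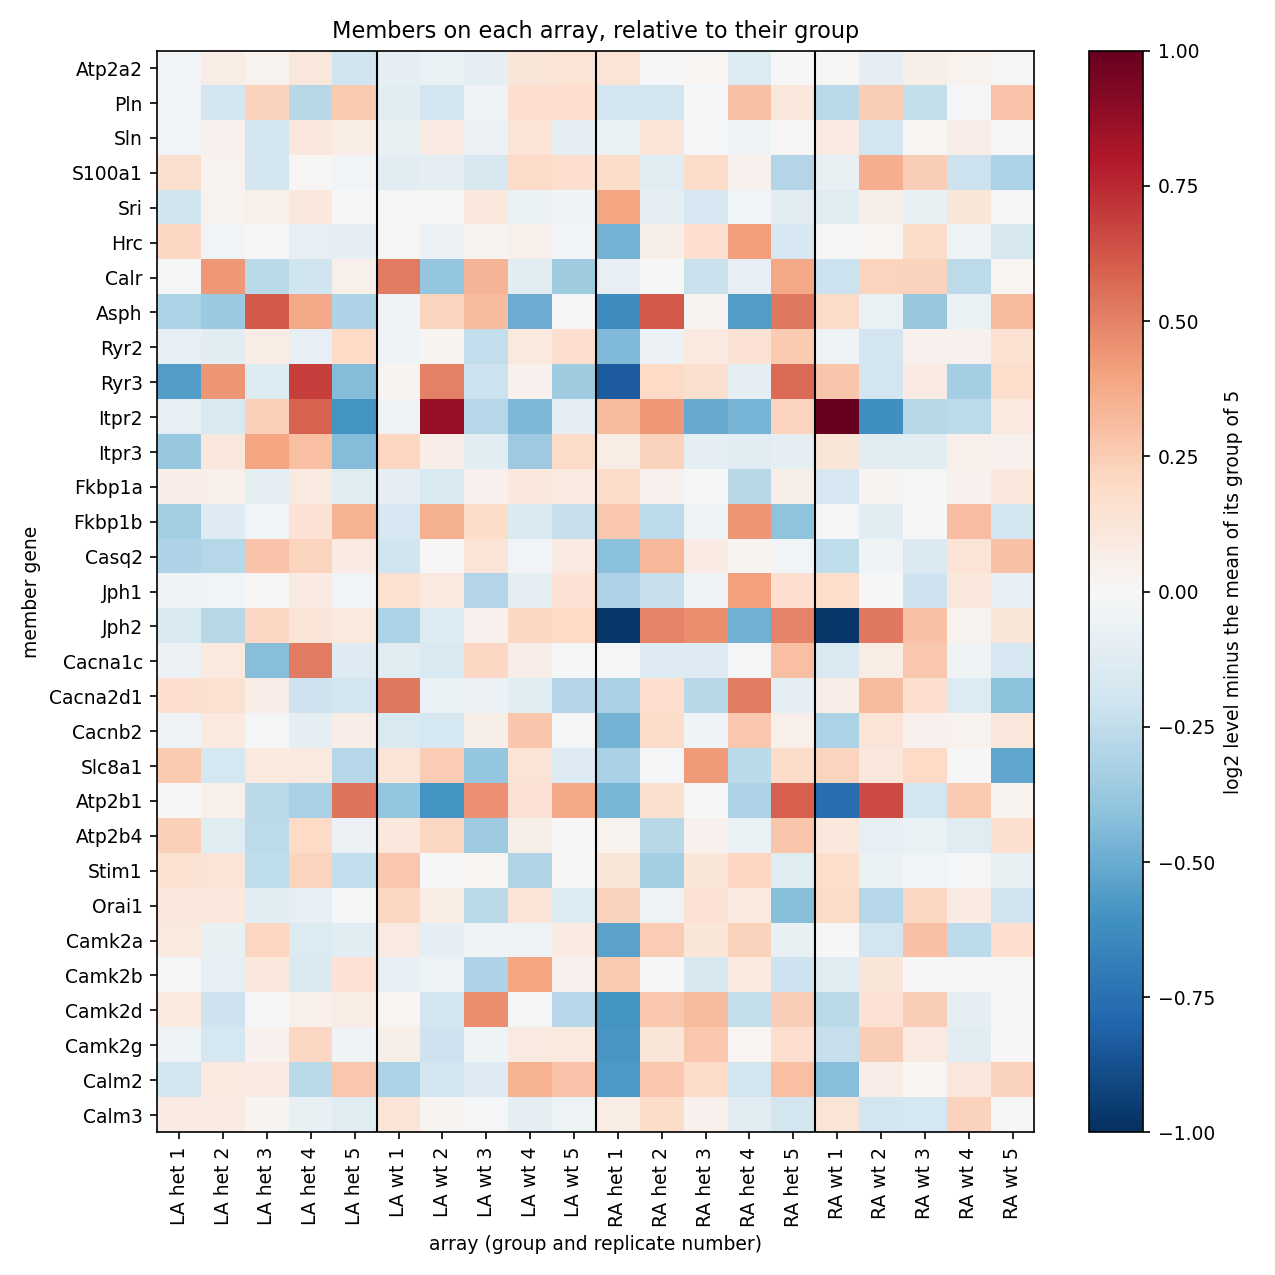
Log2 level of each member's probe (rows, ordered by role) on each array (columns, by group and replicate number), minus the mean of its group of 5. Red is above and blue below the group mean, with colours limited to 1 unit either way. RA het 1 is the column with the most deep colours, lowest of 20 arrays for 12 of 31 members.

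Calcium genes beside the members were taken from 7 lists with 89 genes, of which 60 were tested. These lists too were chosen with earlier results of these data known. Over both genotypes 8 of these 60 were called higher in the left and 5 higher in the right atrium, and 0 were called between the genotypes. These are 13.3% and 8.33% of the 60 genes, beside 5.08% and 4.77% of all 11154 named genes tested. Between the genotypes 0 of all named genes were called over both atria, and 0.00995% of all probes. Slc24a2, a potassium-dependent sodium-calcium exchanger, was 2.33 higher in the left atrium (SE 0.18, limma adjusted p = 2.82e-08). Atp2a1, the SERCA pump of fast skeletal muscle, was 1.34 higher there (SE 0.40, limma adjusted p = 0.0456). The third SERCA gene, Atp2a3, was 0.77 higher in the left atrium (SE 0.12, limma adjusted p = 0.000328), while Atp2a2 lay at -0.04. Of 13 listed skeletal muscle genes all 13 were detected on at least 1 array, but Myh1 and Myh4 on 1 only and Tnnc2 on 2. The summed signal of the 13 ran from 41100 to 51800 in LA het against 48900 to 52400 in RA het, and from 39900 to 47000 in LA wt against 47200 to 58500 in RA wt. Myl1 was the largest part of the sum, at 24375.6 to 31381.6 in LA het and 25475.7 to 35342 in RA het. Myh1, Myh4, Tnnc2 and Mylpf were highest on RA het 4, at 100, 33, 132.7 and 413.8. Sides without overlap were seen for 3.87% of all tested probes in heterozygous and 4.93% in wild-type mice. In heterozygous mice all 13 muscle genes overlapped between the sides. In wild-type mice 1 was higher on every left than on every right array and 3 were lower, while 9 overlapped. The higher one, Tnni2 (fast skeletal troponin I), read 320.4 to 1349.1 in LA het against 150 to 1338.9 in RA het, and 534.2 to 1051 in LA wt against 89.4 to 169 in RA wt. The lower ones in wild-type mice were Tnnt3, at 0.9 to 19.5 in LA wt against 35.6 to 122.2 in RA wt, Pvalb, at 17.7 to 55.8 against 58.1 to 170.6, and Myl1, at 22476.8 to 28490.7 against 29929.5 to 33017.4. The part of these 13 genes in the Atp2a1 difference was not tested.

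Of the lists' genes that were higher in the right atrium, Vsnl1, a calcium sensor also used as a sinoatrial marker, differed by -1.85 (SE 0.17, limma adjusted p = 4.62e-07). Pvalb, the calcium buffer parvalbumin of fast muscle and nerve, differed by -1.47 (SE 0.32, limma adjusted p = 0.00572). Cacna1g, a T-type channel pore of the conduction system, differed by -0.92 (SE 0.13, limma adjusted p = 4.8e-05), and both of its called probes agreed in sign. Mrvi1, a partner of the inositol trisphosphate receptors, differed by -0.56 (SE 0.09, limma adjusted p = 0.000509). Higher in the left atrium were Ppp1r1a, an inhibitor of protein phosphatase 1, by 0.79 (SE 0.15, limma adjusted p = 0.00135), and Tmem38a, a potassium channel of the sarcoplasmic reticulum, by 0.70 (SE 0.08, limma adjusted p = 3.16e-06). The other 4 called genes were Atp2b2, Prkaca, Vdac1 and Camkk2, with differences of 0.47 or less in size. Of these, Atp2b2 and Vdac1 were higher in the left atrium, while Prkaca and Camkk2 differed in opposite directions. The 4 genes of these lists with the highest mean levels among those not called were Cmya5, Prkar1a, Smdt1 and Ppp1ca, with differences of 0.11, 0.24, 0.04 and 0.11 (limma adjusted p = 0.7, 0.116, 0.853 and 0.393). Between the genotypes the 60 genes ran from -0.38 to 1.36 in the left and from -0.66 to 1.37 in the right atrium, with smallest limma adjusted p of 1 and 0.83.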

How the data were processed

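RNA was extracted on columns, checked on a Bioanalyser, biotin-labelled and hybridised to Illumina bead arrays, per the labels' protocols. The deposited intensities are linear, have 33.7% to 33.9% of values below 0 on each array and agree after sorting within 1.8 units, so background had been subtracted and quantiles matched, by software that the labels do not name. Detection p-values were deposited as 1 minus their value and were turned round. A second deposited table equals the first. Probes were named from the platform annotation (34885 with 1 symbol, 18 with several, 10378 with none here), and members matched by symbol.

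With limma 3.58.1 in R 4.3.3, intensities were normexp-corrected from the detection p-values, offset by 16, quantile-normalized and put on a log2 scale, a second correction kept as designed. A probe entered the test if its detection p was below 0.05 on 5 or more arrays. Models had 4 group means over 20 arrays (lmFit, eBayes), with Benjamini-Hochberg adjustment over all 20097 probes for each of 7 contrasts. The offset makes log2 differences of dim probes too small. Steps were tested on simulated data. All members are named, with values on every array for called members and for the 5 smallest p of each genotype contrast. Members, lists and markers were chosen with earlier results of these data known. Replicate numbers do not pair samples in the labels. Among same-numbered arrays of the sides, 3 of 10 correlated over 0.1, so no block was used. All arrays were thus fitted as independent, although both sides came from the same mice. The level of the targeted gene is not reported here. Alternatives are in the closing section.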

Additional observations from a re-analysis of the deposited data

Results flagged for a closer look

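In 5 of 124 groups of 5 arrays, 1 array lay far from the other 4, its gap to the nearest passing 95% of cases for a single population by Dixon's criterion. Chance marks about 1 in 20 groups, so this number is no more than chance gives. Sri reached a log2 level of 10.34 on RA het 1, against 9.91 or less on the other RA het arrays. Cacna1c reached 5.35 on RA het 5, a signal of 24.9, against 5.03 or less. Cacna2d1 reached 10.87 on LA wt 1, against 10.29 or less. On RA wt 1, Cacnb2 was at 8.03, against 8.38 or more on the other RA wt arrays, and Stim1 at 8.84, against 8.65 or less. None of these 5 probes was called in any comparison.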

How the results depend on the processing

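The 7 counts of called members were recomputed under up to 34 other settings, 20 of which leave out 1 array. No result reversed, and 0 members were called for the genotype or the interaction under any of them. With covariates for the levels of Myl2, Adipoq and Upk3b, 1 member was called between the sides in heterozygous mice (Ryr3) and 2 over both genotypes (Camk2b and Ryr3), while the calls over all probes and both genotypes were 489 against 1478 as reported. The cause was not tested. Leaving out 1 array gave 2 to 3 called members between the sides in heterozygous mice, 2 to 3 in wild-type mice, 5 to 6 over both genotypes and 0 to 0 elsewhere. Without RA het 4, Hrc was added in heterozygous mice and Slc8a1 over both genotypes, and without RA het 1 Hrc was added in wild-type mice. Without the 4 arrays whose Ucp1 signal passed 100, 4 members were called over both genotypes. Leaving out the 3 arrays with a Myl2 signal over 10000, a choice made after seeing the data, gave 6 over both genotypes and 3 in wild-type mice. Array weights gave the same numbers, and a fit of only the arrays compared gave 3 in wild-type mice. With the replicate number as a block, fixed or random, the counts stayed at 2, 2 and 5 between the sides and at 0 for the genotype, and the consensus correlation of same-numbered arrays was 0.045. Same-numbered arrays of the sides correlated between -0.42 and 0.35, and 2 of 10 matched their own number best, so the numbers were not taken as a pairing. The Ryr3 difference over both genotypes (ILMN_2697410) ran from -2.69 to -1.94 and passed in 33 of 33 settings, and that of Camk2b ran from 0.54 to 0.75 and passed in 33 of 33. The dim Ryr3 probe ILMN_2656679 passed in 32 of 33 settings in each genotype, the exception being the covariates. It entered the test only through right atria, so these passes add no support to the direction. Pln and Hrc passed in 32 of 33 and the called Cacna2d1 probe in 31 of 33. Signals near background limit Cacna1c and Fkbp1b, and signals near the top of the range limit Atp2a2 and Sln.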
